A study of Mus musculus with 6 samples.

Results

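The genes described here make, sense, take up and move cholesterol. They are 31 listed genes, of which 30 were measured among 18193 genes on the arrays: 16 synthesis enzymes, 5 sterol sensing genes, 2 uptake receptors and 7 of 8 transport genes. Each gene was read from its brightest probe set, by the mean of all 6 arrays, among those to which the platform annotation gives exactly 1 gene symbol. Soat1, which encodes the enzyme that esterifies cholesterol for storage, had no such probe set and was not analysed here.

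The arrays were Affymetrix Mouse Genome 430 2.0 arrays hybridised with total RNA from the ventricular apex of mouse hearts. PR-M expressing hearts (3 arrays) were compared with PR-M non-expressing hearts (3 arrays). PR-M is a human progesterone receptor of the mitochondrion, carried here by a transgenic mouse. Animals of both groups had received 2.5 mg progesterone in oil under the skin for 19 to 21 days, so the comparison is between PR-M states with the hormone present in both and measures no hormone effect. The labels give neither the promoter of the transgene, the strain, the age nor the sex of the animals, do not say how non-expressing animals were defined, and do not tell whether each array had its own animal. The p-values therefore measure the spread between these samples, which may be technical.

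Cells build cholesterol from acetyl-CoA through mevalonate, farnesyl diphosphate and squalene. When sterols in the endoplasmic reticulum run low, SCAP carries the SREBP transcription factors to the Golgi for cleavage, and the released factors switch on the synthesis enzymes and INSIG1. When sterols are plentiful, the INSIG proteins hold SCAP and SREBP back. Cholesterol taken up with lipoproteins leaves the lysosome through NPC2 and NPC1, and START-domain proteins and contacts between organelles pass it on to other membranes, among them those of mitochondria. In steroid-producing cells the delivery of cholesterol to the inner mitochondrial membrane limits hormone synthesis.

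The samples and arrays were checked before the genes were compared. Array medians lay between 5.77 and 5.78 on the deposited log2 scale, and the 6 heart muscle markers Myh6, Tnnt2, Tnni3, Actc1, Ryr2 and Myl2 averaged 14.08 to 14.16 on expressing arrays, against 13.99 to 14.15 on non-expressing arrays. Of the 4 atrial markers all were higher on expressing arrays and 3 passed the test, Sln with a log2 difference of 3.89, Myl4 with 3.60 and Myl7 with 3.45 (limma adjusted p 0.0348 to 0.0451). None of these calls was made without expressing replicate 3 or without any 1 of the non-expressing arrays, where the lowest adjusted p was 0.0549 to 0.177. None was made either with a random block for the title prefix, other variance priors or averaged probe sets, where it was 0.0636 to 0.0897. All 4 markers were higher under every setting tried. The marker lists were chosen with earlier results of these data known, so the atrial calls are no independent check. The averaged level of the atrial list was 9.10 to 11.05 on expressing arrays, against 6.75 to 7.25 on non-expressing arrays. The 18S ribosomal RNA control was at 8.31 ± 0.22 on expressing arrays, against 9.88 ± 0.38 on non-expressing arrays (SD, n = 3 each). The part of this tissue makeup or RNA quality in the results below was not tested. The 3 expressing samples have titles with 1 common prefix, and the non-expressing titles have 2 prefixes, one for replicate 1 and another for replicates 2 and 3, so a prefix effect and the group cannot be told apart. In tissue RNA, fewer cells of a type and less RNA per cell cannot be told apart either.

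None of the 30 measured cholesterol genes passed the test between the PR-M groups (limma, Benjamini-Hochberg over 18193 genes, threshold 0.05). Over all genes 0.066% passed. The lowest adjusted p among the 30 was 0.273, for Stard3. Of the 30 genes 15 were higher and 15 lower in the expressing arrays, with a median log2 difference of -0.01, beside a median of -0.02 over all genes tested, of which 8011 were higher and 10182 lower. At an unadjusted p under 0.05 there were 2 genes higher and 3 lower, 6.67% and 10.0% of the members, beside 4.85% of all genes higher and 6.56% lower. The groups did not overlap in 3 members that were higher and 3 that were lower, 10.0% in each direction, where the shares over all genes were 8.16% and 10.8%. These counts lay close to those of all genes, and with 30 members a share moves by several percentage points for each gene.

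**Figure D1:**
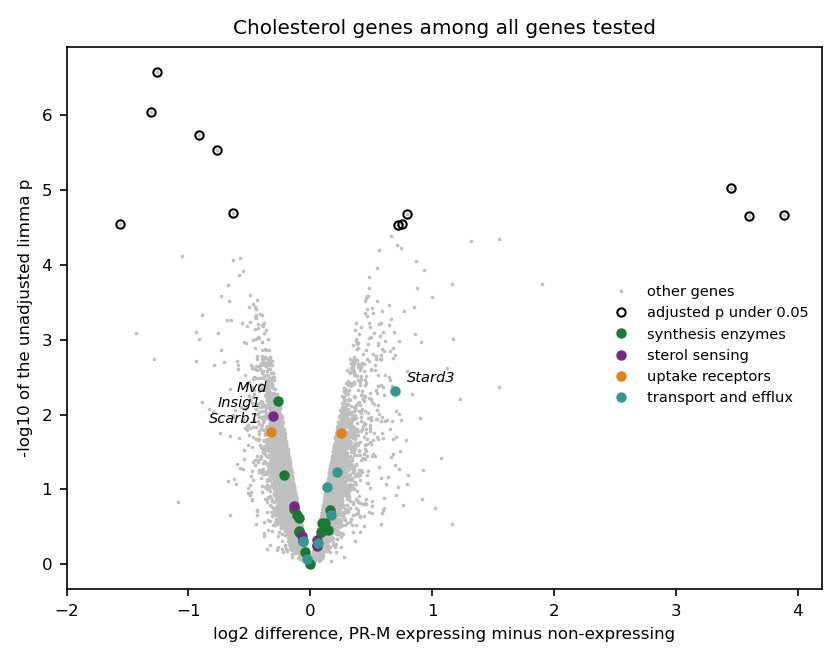
Volcano plot of the 18193 genes: the horizontal axis is the log2 difference (PR-M expressing minus non-expressing) and the vertical axis is the negative log10 of the unadjusted limma p. Coloured points are the 30 measured cholesterol genes by role and black rings are the 12 genes past the adjusted threshold. No coloured point carries a ring, and Stard3, at a difference of 0.70, lies farthest to the right of them.

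The differences had intervals of limited width. These reflect the spread between arrays within a group and do not cover an effect of the title prefix, which goes with the group. The 95% intervals of limma, which are not adjusted for the number of genes, had a median reach of 0.21 log2 units to each side of the difference, between 0.16 for the narrowest and 0.42 for the widest. In 29 of the 30 genes the whole interval lay within a log2 difference of 1 in either direction, and in 27 within 0.5. The exception at 1 was Stard3, whose interval reached 1.12. Intervals of 5 genes did not include 0, those of Stard3, Lrp1, Mvd, Insig1 and Scarb1.

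**Figure D2:**
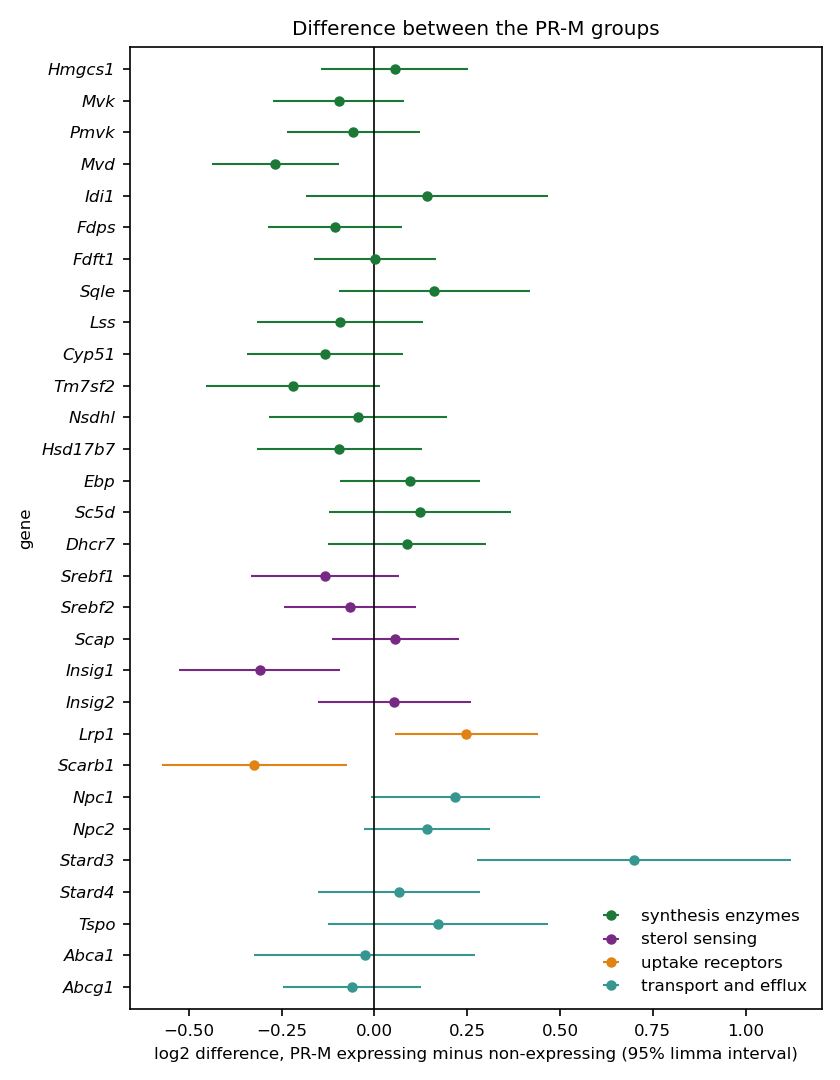
Log2 difference of each measured gene between PR-M expressing and non-expressing arrays (points, horizontal axis) with its 95% limma interval (lines), n = 3 arrays each, coloured by role. Points lie on both sides of 0 in every role, and the interval of Stard3 runs from 0.28 to 1.12.

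Regulatory sequence was looked up for the members because SREBP targets are recognised by motifs near their start sites. RefSeq promoter windows of the build GRCm38.p6, 250 bases before to 50 after a gene's start, were given for 23 of the 31 members. There was none for Fdps, Fdft1, Sqle, Scarb1, Npc1, Stard4, Tspo and Abcg1. Both strands were searched for the SREBP consensus TCACNCCAC, the NF-Y box CCAAT and the Sp1 box GGGCGG, and a gene with several windows was counted as holding a motif where any of them held it. The SREBP consensus was found in 2 of the 23 members, Hmgcs1 and Stard3 (8.70%), and in 1.46% of the 14452 genes tested on the arrays that have a window. The NF-Y box was found in all 13 synthesis enzymes with a window and in 20 of the 23 members, beside 42.0% of those 14452 genes. The Sp1 box was found in 22 of the 23 members and in 57.3% of the 14452 genes. A match is a description of letters in a window and no evidence of binding. Only exact matches in these windows were counted, so a missing match is no evidence against a site.

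Shown here are the windows of the only members with the SREBP consensus, Stard3 and Hmgcs1, and of the synthesis and the sensing gene with the lowest p, Mvd and Insig1. Stard3 lies at chr11:98358118-98358417 on the plus strand, Hmgcs1 at chr13:119690101-119690400 on the plus strand, Mvd at chr8:122443373-122443672 on the minus strand and Insig1 at chr5:28071162-28071461 on the plus strand. Each is printed 5′ to 3′ on the strand of its gene, with capitals for the SREBP consensus and for the NF-Y box, which reads ATTGG where it lies on the other strand.
Stard3: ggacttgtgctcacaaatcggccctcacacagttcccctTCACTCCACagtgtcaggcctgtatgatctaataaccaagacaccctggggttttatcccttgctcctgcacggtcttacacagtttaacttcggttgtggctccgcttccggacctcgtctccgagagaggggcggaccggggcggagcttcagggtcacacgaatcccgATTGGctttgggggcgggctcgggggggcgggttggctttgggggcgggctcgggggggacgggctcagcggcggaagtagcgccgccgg
Hmgcs1: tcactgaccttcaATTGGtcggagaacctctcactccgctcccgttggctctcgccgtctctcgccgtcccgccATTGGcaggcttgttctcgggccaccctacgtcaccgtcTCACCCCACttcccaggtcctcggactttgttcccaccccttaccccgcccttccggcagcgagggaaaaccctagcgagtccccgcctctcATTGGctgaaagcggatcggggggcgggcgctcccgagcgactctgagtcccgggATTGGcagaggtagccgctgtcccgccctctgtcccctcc
Mvd: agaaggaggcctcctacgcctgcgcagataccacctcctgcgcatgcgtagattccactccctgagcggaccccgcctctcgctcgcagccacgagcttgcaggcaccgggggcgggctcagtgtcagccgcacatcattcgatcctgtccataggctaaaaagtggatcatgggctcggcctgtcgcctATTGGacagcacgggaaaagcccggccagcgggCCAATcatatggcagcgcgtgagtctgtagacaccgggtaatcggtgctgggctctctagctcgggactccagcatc
Insig1: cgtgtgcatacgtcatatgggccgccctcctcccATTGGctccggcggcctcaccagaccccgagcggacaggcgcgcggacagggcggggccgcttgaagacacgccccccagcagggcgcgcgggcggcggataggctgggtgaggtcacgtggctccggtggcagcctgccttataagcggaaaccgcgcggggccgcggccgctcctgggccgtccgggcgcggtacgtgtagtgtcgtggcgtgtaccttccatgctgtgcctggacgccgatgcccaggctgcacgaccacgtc
The consensus begins 211 bases before the start of Stard3, as TCACTCCAC, and 137 bases before that of Hmgcs1, as TCACCCCAC. No motif in capitals overlaps another. Hmgcs1 has 4 NF-Y boxes, Mvd 2, and Stard3 and Insig1 1 each. The log2 difference was 0.70 for Stard3 and 0.05 for Hmgcs1, which both hold the consensus. It was -0.27 for Mvd and -0.31 for Insig1, whose windows hold no match to it. Mvd and Insig1 were shown for their low p, so these 4 values do not tell whether motif and difference go together. Other members with a window and no match lay on both sides of 0, such as Lrp1 at 0.25 and Tm7sf2 at -0.22.

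The synthesis enzymes showed no common difference between the groups. Of the 16 enzymes 7 were higher and 9 lower in the expressing arrays, with a median log2 difference of -0.05 and a range from -0.27 to 0.16. None passed, 1 was lower at an unadjusted p under 0.05, and 1 was lower without overlap, Mvd in both counts. Over all genes 6.56% and 10.8% were lower by these measures. The averaged level of the 16 was 7.22 to 7.31 on expressing arrays, against 7.24 to 7.34 on non-expressing arrays, which overlapped. The 6 listed enzymes up to farnesyl diphosphate, which are not all enzymes of that part, had a median of -0.08 (2 higher, 4 lower). The 10 listed enzymes from squalene onward had one of -0.02 (5 higher, 5 lower).

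Mvd, which encodes the decarboxylase that forms isopentenyl diphosphate, had the lowest p of the enzymes. It was at 6.29, 6.26 and 6.34 on expressing arrays, against 6.58, 6.61 and 6.51 on non-expressing arrays. All expressing arrays lay below all non-expressing ones, a 1.20-fold difference (log2 -0.27, SE 0.07, limma adjusted p 0.304). A second, dimmer Mvd probe set had a difference of -0.11, and its groups overlapped. Left out in turn, single arrays moved the Mvd difference between -0.29 and -0.24.

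The other listed mevalonate enzymes differed by less. Hmgcs1, for the cytosolic synthase that condenses acetyl-CoA into the precursor of mevalonate, was at 9.55, 9.38 and 9.36 on expressing arrays, against 9.28, 9.42 and 9.42 on non-expressing arrays. These values overlapped, with a difference of 0.05 (95% interval -0.14 to 0.25). Its 4 other probe sets differed by -0.09 to 0.06. The kinase genes Mvk and Pmvk had differences of -0.10 and -0.06, and Fdps, for farnesyl diphosphate synthase, one of -0.11. Fdps was at 7.30, 7.28 and 7.27 on expressing arrays, against 7.28, 7.44 and 7.44 on non-expressing arrays, so non-expressing replicate 1 lay with the expressing arrays.

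Idi1, the isomerase that prepares the isoprene units for joining, turned on the same array. It was at 6.73, 6.78 and 6.86 on expressing arrays, against 6.30, 6.88 and 6.77 on non-expressing arrays. The low value is that of non-expressing replicate 1. With all arrays the difference was 0.14 (SE 0.14, adjusted p 0.740), and without that array it was -0.03. The second Idi1 probe set, below the array median, differed by -0.00349.

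The enzymes at and after squalene gave differences in both directions. Fdft1, for squalene synthase, was at 9.75, 9.79 and 9.73 on expressing arrays, against 9.77, 9.73 and 9.76 on non-expressing arrays, with a difference of 0.00 (95% interval -0.16 to 0.17). Its brightest probe set ends in _x_at, a mark that some of its probes can match other transcripts. A further bright Fdft1 probe set without that mark differed by 0.22 (limma adjusted p over probe sets 0.464). The brightest Hmgcs1 probe set ends in _x_at too. Sqle, for squalene epoxidase, was at 5.79, 5.79 and 5.47 on expressing arrays, against 5.43, 5.66 and 5.48 on non-expressing arrays. Sqle and Lss, for lanosterol synthase, were the 2 members whose mean lay below the median probe set of 5.77, where background makes up more of the signal. Sqle differed by 0.16 (SE 0.11) and Lss by -0.09 (SE 0.10), and both groups overlapped.

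Among the enzymes that turn lanosterol into cholesterol Tm7sf2, for a sterol reductase, had the lowest p. It was at 6.79, 6.47 and 6.56 on expressing arrays, against 6.79, 6.75 and 6.93 on non-expressing arrays, where expressing replicate 1 reached the non-expressing level. The difference was -0.22 (SE 0.10, adjusted p 0.459). Cyp51, for lanosterol demethylase, was at 6.26, 6.31 and 6.13 on expressing arrays, against 6.24, 6.36 and 6.49 on non-expressing arrays. Its 3 probe sets had differences of -0.13, -0.22 and -0.16, none past the threshold. Nsdhl and Hsd17b7, for a dehydrogenase and a ketoreductase of sterol demethylation, differed by -0.04 and -0.09, and the 3 other Hsd17b7 probe sets by 0.06 to 0.19, opposite in sign to the brightest. Ebp, for the sterol isomerase, differed by 0.10, Sc5d, for a sterol desaturase, by 0.12, and Dhcr7, for the reductase of the last step to cholesterol, by 0.09. The lowest adjusted p of these 3 was 0.692.

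**Figure D3:**
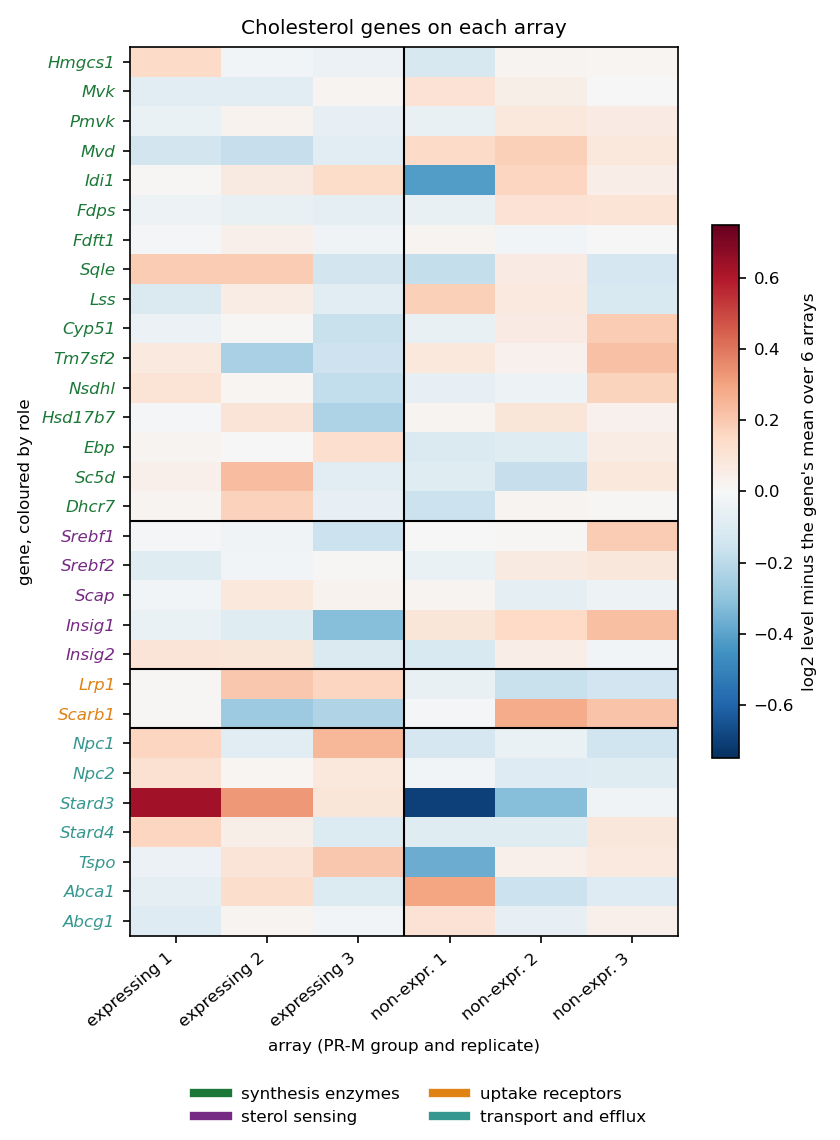
Heat map of the 30 measured genes (rows, coloured by role) on the 6 arrays (columns, PR-M expressing left of non-expressing): colour gives the log2 level minus the mean of the gene over the 6 arrays. The synthesis enzymes show no block of colour that follows the groups, Idi1 and Tspo are low on non-expressing replicate 1, and Stard3 has the widest span.

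The sterol sensing genes were 2 higher and 3 lower, with a median log2 difference of -0.07. Leaving out non-expressing replicate 1 gave a median of -0.11, and leaving out expressing replicate 1 gave -0.04, as did leaving out non-expressing replicate 3. Insig1, which encodes the sterol-controlled anchor of SCAP, had the lowest p of them. It was at 7.32, 7.28 and 7.05 on expressing arrays, against 7.46, 7.52 and 7.59 on non-expressing arrays. The groups did not overlap, and the difference was 1.24-fold (log2 -0.31, SE 0.09, adjusted p 0.337). Only 1 probe set reads Insig1, so no second measurement was at hand. Single arrays left out in turn moved its difference between -0.36 and -0.23.

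Srebf1, for the SREBP that mainly serves fatty acid genes, was at 8.73, 8.73 and 8.59 on expressing arrays, against 8.75, 8.76 and 8.94 on non-expressing arrays. The groups did not overlap, but their nearest values were 8.73 and 8.75, and the difference of -0.13 (SE 0.09) had an adjusted p of 0.587. Srebf2, for the SREBP that mainly serves cholesterol genes, was at 7.34, 7.42 and 7.44 on expressing arrays, against 7.38, 7.50 and 7.52 on non-expressing arrays. Its difference was -0.07 (95% interval -0.24 to 0.11). Scap differed by 0.06 and Insig2 by 0.05, and both overlapped. Insig1 and Insig2 thus had differences of opposite sign, and neither passed.

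The 2 uptake receptors had differences of opposite sign. Lrp1, a large endocytic receptor for lipoprotein remnants and many other ligands, was at 9.50, 9.70 and 9.66 on expressing arrays, against 9.44, 9.32 and 9.35 on non-expressing arrays. All expressing arrays were higher, with a 1.19-fold difference (log2 0.25, SE 0.08, adjusted p 0.352). The second, dim Lrp1 probe set was at 5.45 on expressing arrays, against 5.13 on non-expressing arrays on average, also without overlap (difference 0.32, adjusted p over probe sets 0.184).

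Scarb1, the receptor that takes cholesteryl esters from high-density lipoprotein, was at 7.93, 7.65 and 7.70 on expressing arrays, against 7.91, 8.20 and 8.13 on non-expressing arrays. Expressing replicate 1 and non-expressing replicate 1 met at 7.93 and 7.91, and the other arrays were apart. The difference was -0.32 (SE 0.11, adjusted p 0.352), 1.25-fold lower. The 2 other Scarb1 probe sets, both ending in _x_at, differed by -0.36 and -0.37, and the groups of the one at -0.37 did not overlap. With array weights the adjusted p of Scarb1 was 0.155, the lowest of any member under any setting tried.

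**Figure D4:**
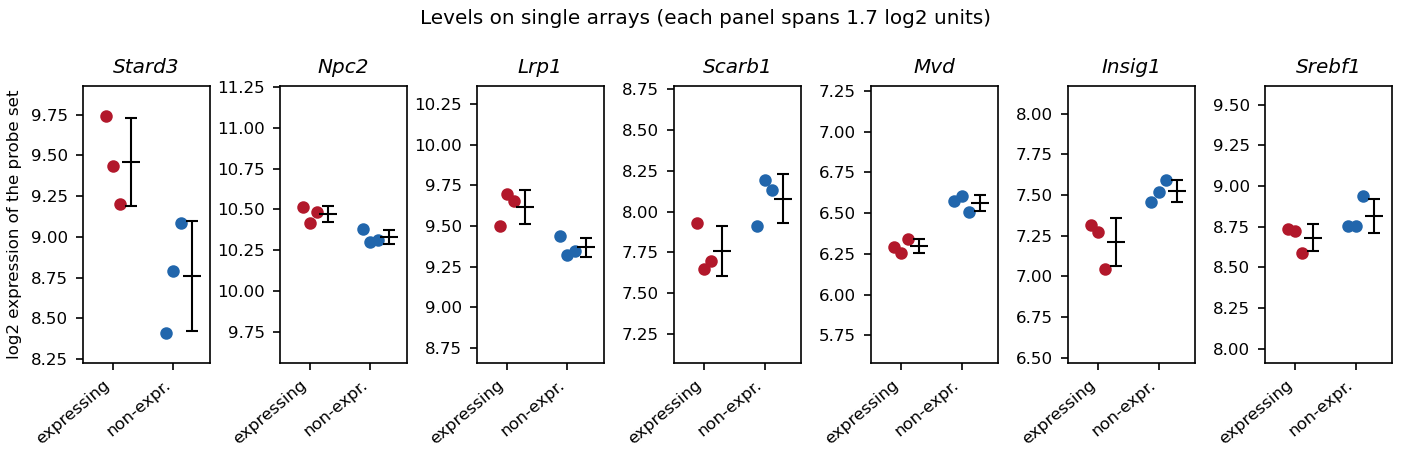
Log2 level on each array (points) of the 6 genes whose groups did not overlap and of Scarb1, PR-M expressing left of non-expressing, with mean and SD (black, n = 3 each). Each panel spans 1.7 log2 units, so distances compare between panels. The Stard3 groups differ most and also scatter most, with an SD of 0.27 on expressing arrays, against 0.34 on non-expressing arrays.

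The transport genes leaned higher in the expressing arrays. Of the 7 measured 5 were higher and 2 lower, with a median log2 difference of 0.14, beside -0.02 over all genes. That median is the value of Npc2 on its brightest probe set, and the other Npc2 probe sets differed by -0.03 to 0.03. None of the 7 passed, and 1 was higher at an unadjusted p under 0.05, beside 4.85% of all genes. All 7 lay above the median probe set, while 6230 of all 18193 genes lay below it. No comparison with genes of like level was made. The averaged level of the 7 was 8.90 to 8.96 on expressing arrays, against 8.71 to 8.82 on non-expressing arrays. Without Stard3 it was 8.83 to 8.85 on expressing arrays, against 8.72 to 8.77 on non-expressing arrays, again without overlap, and the median difference was 0.10. The median was 0.09 with array weights and 0.07 when all probe sets of each gene were averaged.

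Stard3 had the largest difference of any member. It encodes a START-domain protein of late endosomes that binds cholesterol and tethers endosomes to other organelles, and it has been studied as a supplier of cholesterol to mitochondria in the placenta. It was at 9.74, 9.44 and 9.20 on expressing arrays, against 8.41, 8.79 and 9.08 on non-expressing arrays. The groups did not overlap, yet the lowest expressing and the highest non-expressing array were close, at 9.20 and 9.08. The difference was 1.62-fold (log2 0.70, SE 0.18, 95% interval 0.28 to 1.12, adjusted p 0.273). It was 0.52 without non-expressing replicate 1 and up to 0.86 with another array left out, and under the settings tried its adjusted p lay between 0.188 and 0.531. A single probe set reads Stard3.

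The lysosomal pair was slightly higher on the brightest probe set of each gene. Npc1, the membrane protein that exports cholesterol from the lysosome, was at 8.59, 8.35 and 8.68 on expressing arrays, against 8.30, 8.38 and 8.28 on non-expressing arrays. Expressing replicate 2 lay within the non-expressing range, and the difference was 0.22 (SE 0.10, adjusted p 0.452). Npc2, the soluble partner that hands cholesterol to NPC1, was at 10.51, 10.42 and 10.48 on expressing arrays, against 10.38, 10.30 and 10.31 on non-expressing arrays. These groups did not overlap, with a difference of 0.14 (SE 0.07, adjusted p 0.504). The 3 other Npc2 probe sets differed by -0.03 to 0.03, and their groups overlapped. The brightest of these 3 was nearly as bright, at 10.21 on expressing arrays, against 10.24 on non-expressing arrays on average. With all Npc2 probe sets averaged the difference was 0.03.

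Tspo and Stard4, of mitochondrial and cytosolic transfer, had overlapping groups. Tspo, a protein of the outer mitochondrial membrane long linked to cholesterol import, was at 9.44, 9.57 and 9.68 on expressing arrays, against 9.11, 9.52 and 9.55 on non-expressing arrays. The difference of 0.17 (SE 0.13, adjusted p 0.639) became 0.03 without non-expressing replicate 1. Its 2 other probe sets, both ending in _x_at, differed by 0.14 and 0.18. Stard4, a cytosolic sterol carrier and known SREBP target, differed by 0.07 (95% interval -0.15 to 0.28), and 1 of its 2 other probe sets, at 0.13, had groups that did not overlap.

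The efflux genes, targets of the oxysterol receptors LXR, did not differ beyond their spread. Abca1, which loads cholesterol onto apolipoprotein A-I, was at 9.80, 10.01 and 9.78 on expressing arrays, against 10.17, 9.71 and 9.78 on non-expressing arrays. The high array was again non-expressing replicate 1, and the difference of -0.03 (95% interval -0.32 to 0.27) was 0.12 without it. Abcg1, which exports cholesterol to high-density lipoprotein, was at 7.41, 7.53 and 7.49 on expressing arrays, against 7.62, 7.45 and 7.55 on non-expressing arrays, a difference of -0.06 (95% interval -0.25 to 0.13).

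Further probe sets were at hand for 20 of the 30 genes and gave a second look at each. Over all 67 probe sets of the members none passed (limma, adjusted over 45037 probe sets, of which 0.0133% passed), and 8 had an unadjusted p under 0.05. These were 3 higher, from Lrp1 and Stard3 (4.48% of the 67, beside 5.86% of all probe sets), and 5 lower, from Mvd, Insig1 and Scarb1 (7.46%, beside 6.37%). Probe sets of 1 gene are no independent measurements. Of the 37 probe sets that did not represent a gene 23 had the sign of the brightest and 14 the opposite sign. The 3 of them with an unadjusted p under 0.05 read Lrp1 and Scarb1. The signs agreed in every probe set of Mvk, Mvd, Fdps, Cyp51, Scap, Lrp1, Scarb1, Stard4, Tspo, Abca1 and Abcg1. They parted in the other 9 genes, among them Hmgcs1, Fdft1 and Npc2.

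**Figure D5:**
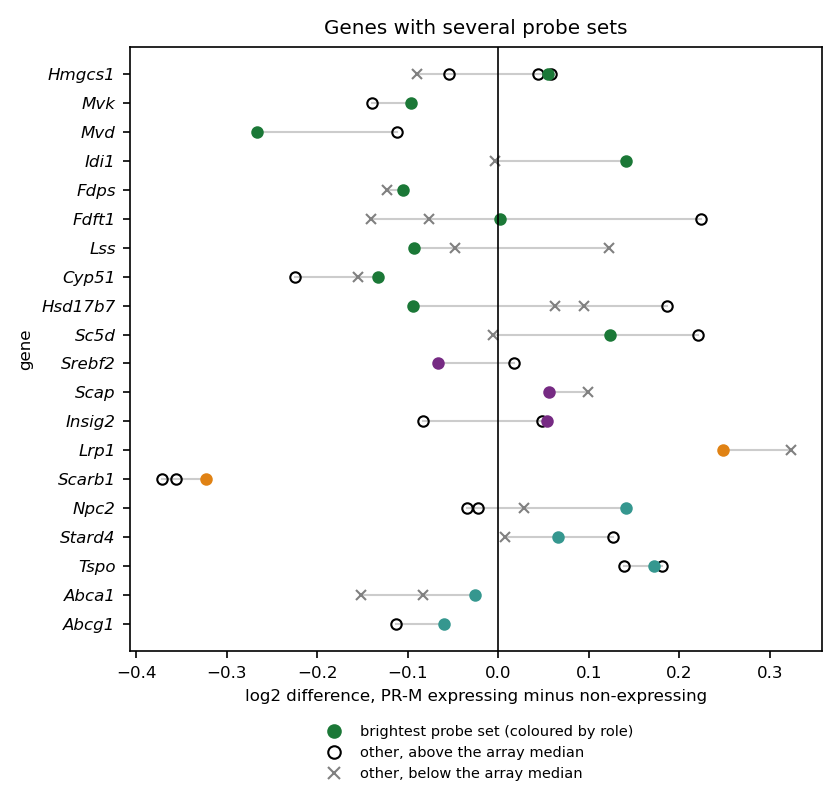
Log2 difference (PR-M expressing minus non-expressing, horizontal axis) of each probe set of the 20 genes with several: filled points are the brightest probe sets, open circles others above and crosses others below the median probe set. The 3 Scarb1 probe sets lie together between -0.37 and -0.32, and those of Hsd17b7 and Npc2 spread over both sides of 0.

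Further genes of the pathway were read in the same fit, 41 measured of 48 listed. None passed, and at an unadjusted p under 0.05 there were 2 higher and 1 lower, beside 4.85% of all genes higher and 6.56% lower. Of the 41 genes 30 were higher and 11 lower, beside 8011 higher and 10182 lower over all genes. The 41 were not matched to all genes for level, as 6 of them lay below the median probe set, beside 6230 of all 18193. The median of the 41 was 0.05, beside -0.02 over all genes, and the lowest adjusted p was 0.317. From each of the 5 lists the 2 genes with the lowest p are given. Among 5 further synthesis genes, all higher, Lbr, a sterol reductase of the nuclear envelope, differed by 0.23 and Msmo1, a sterol monooxygenase, by 0.18. Of 7 genes that process or degrade SREBP-linked proteins 5 were higher and 2 lower, with a median of 0.05. The lower ones had the lowest p, and Mbtps2, the protease of the second SREBP cleavage, differed by -0.18 and Erlin1 by -0.15.

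Nr1h3, which encodes the oxysterol receptor LXR alpha that drives Srebf1, Abca1 and Abcg1, was at 6.49, 6.38 and 6.44 on expressing arrays, against 6.95, 6.69 and 6.66 on non-expressing arrays. The groups did not overlap, and the difference was -0.33 (SE 0.10, adjusted p 0.317). In the same list of 5, with 1 higher and 4 lower, Ch25h, for an enzyme that makes an oxysterol, differed by -0.33 with overlap (SE 0.18). Of 6 genes of lipoprotein uptake and lysosomal release, 3 higher and 3 lower, Cd36, the fatty acid and lipoprotein scavenger receptor, differed by 0.19 and Lrp8, a lipoprotein receptor, by -0.19.

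Of 18 further transport and mitochondrial genes 16 were higher and 2 lower, beside 8011 higher and 10182 lower over all genes. The median of the 18 was 0.05, beside -0.02 over all genes. Of these 18 genes 3 lay below the median probe set, beside 6230 of all 18193. No comparison with genes of like level was made, so the counts do not set these genes apart from other bright ones. Gramd1b, for an endoplasmic reticulum protein that takes up plasma membrane cholesterol, was at 6.54, 6.38 and 6.27 on expressing arrays, against 6.28, 5.68 and 5.75 on non-expressing arrays. The lowest expressing array lay just below non-expressing replicate 1, and the difference was 0.50 (SE 0.16, adjusted p 0.340). Stard7, a START-domain protein that brings phosphatidylcholine to mitochondria, was at 11.56, 11.38 and 11.41 on expressing arrays, against 11.34, 11.15 and 11.21 on non-expressing arrays, without overlap (difference 0.22, adjusted p 0.409). Cyp11a1, the mitochondrial enzyme that cuts the cholesterol side chain to begin steroid synthesis, was at 4.73 to 4.87 on expressing arrays, against 4.59 to 4.86 on non-expressing arrays, below the median probe set, and was named after its values were seen.

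Most markers of other heart cells were also higher on expressing arrays, as were most transport genes and Lrp1. Over all genes, which were not matched to these for level, 8011 were higher and 10182 lower. All 6 fibroblast markers were higher in the expressing arrays, none past the threshold, with an averaged level of 11.14 to 11.32 on expressing arrays, against 10.94 to 11.07 on non-expressing arrays. Of 7 macrophage markers 5 were higher, with an averaged level of 8.46 to 8.48 on expressing arrays, against 8.16 to 8.54 on non-expressing arrays. All 4 smooth muscle markers were higher, at 7.36 to 8.08 on expressing arrays, against 7.12 to 7.66 on non-expressing arrays. Of 5 endothelial markers 4 were higher, at 9.18 to 9.31 on expressing arrays, against 9.07 to 9.21 on non-expressing arrays. Of 4 measured adipocyte markers 3 were higher, at 6.79 to 7.34 on expressing arrays, against 6.70 to 6.97 on non-expressing arrays. The 2 measured of 5 listed Schwann cell markers averaged 8.15 to 8.35 on expressing arrays, against 7.74 to 7.86 on non-expressing arrays. Mbp differed by 0.88 without overlap and Pmp22 by 0.01 with overlap, so the gap between these averages comes from Mbp. The 2 measured erythroid markers averaged 5.66 to 6.21 on expressing arrays, against 5.88 to 6.34 on non-expressing arrays. The averaged fibroblast, Schwann cell and atrial lists did not overlap between groups, and the beta-actin 3′ minus 5′ difference, a sign of RNA integrity, was 1.23 ± 0.05 on expressing arrays, against 1.38 ± 0.07 on non-expressing arrays (SD, n = 3 each). The same difference for Gapdh was 0.10, 0.22 and 0.19 on expressing arrays, against 0.30, 0.16 and 0.28 on non-expressing arrays, which overlapped. Their part in the values of Stard3, Npc2, Lrp1 and the other genes was not tested.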

How the data were processed

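Expression was measured on 6 Affymetrix arrays, with 3 for each PR-M group. The values are log2 expression values deposited by the authors, 1 per probe set and array, and the submitters' processing notes name RMA and Partek 6.6 with no settings. That they are log2 was judged by their range. Such normalization between arrays removes a shift of all genes together. Probe intensities were not used here, so the background correction could not be varied, and the precision is limited by the number of arrays.

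Of 45101 probe sets 64 controls were left out. Of the other 45037, 34945 have 1 gene symbol, 932 several and 9160 none, and 0 symbols changed when set against RefSeq (GRCm38.p6). limma 3.58.1 in R 4.3.3 (lmFit, eBayes, two-sided) was fitted over 45037 probe sets, with a prior of 4.48 degrees of freedom beside 4 residual ones. For 18193 genes the probe set with the highest mean was kept and p-values were adjusted over those genes (Benjamini-Hochberg, 0.05). The fit was tested on simulated data with independent noise on each array. They held no effect of the title prefix, so the test does not bear on one. SE and intervals are moderated. The members and lists were chosen with earlier results of these data known. All members are named, with the 2 further genes of lowest p from each list. Replicates were numbered in record order and pair no samples. Alternatives were a filter on dim probe sets, 3 scalings, another prior, weights for arrays, a random block for the title prefix (statmod 1.5.0), leaving out _x_at and _s_at probe sets, the mean of a gene's probe sets and leaving out each array. A prior from 1 probe set per gene was added after the data were seen.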

Additional observations from a re-analysis of the deposited data

How the results depend on the processing

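No cholesterol gene passed under any of the 16 alternatives, and the lowest adjusted p was 0.155 (limma). The count over all genes was 12 as reported, 23 with an intensity trend and robust prior, 26 with array weights, 4 with a random block for the title prefix, 3 without _x_at and _s_at probe sets, 1 when a gene's probe sets were averaged, and 4 with the prior from 1 probe set per gene. It ran from 0 without non-expressing replicate 2 to 18 without non-expressing replicate 1. The median of the transport genes was 0.0902 with array weights and 0.0665 when probe sets were averaged, beside 0.14 as reported. That of the synthesis enzymes lay between -0.0709 and 0.00635 with 1 array left out, that of the sterol sensing genes between -0.108 and -0.0382, and that of the uptake receptors between -0.0627 and -0.0199. The sensing median was -0.0243 when probe sets were averaged.

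Of 478 differences under alternatives 15 changed sign, in 7 genes. Hmgcs1 was -0.0548 without _x_at and _s_at probe sets and between -0.00374 and 0.0898 with 1 array left out. Idi1 ran from -0.0332 to 0.26 and Nsdhl from -0.11 to 0.0379 with 1 array left out. Fdft1 was -0.0115 with quantile normalization and -0.0101 with cyclic loess, and ran from -0.0175 to 0.0167 with 1 array left out. Lss was 0.12 without _x_at and _s_at probe sets, and Hsd17b7 was 0.0622 when probe sets were averaged. Abca1 was 0.0763 with array weights and ran from -0.11 to 0.12 with 1 array left out. The cause was not tested, beyond the probe sets and arrays that each setting leaves out. Sqle and Lss gave no value without dim probe sets. The 3 arrays in each group limit what could be called.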
